A study of Mus musculus with 8 samples.

Results

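The genes described here encode the aminoacyl tRNA synthetases of the cytosol and of the mitochondrion. They were chosen by symbol from a fixed list, with no measured value in the rule, and each symbol was joined through its Ensembl identifier to the deposited count table. The list held 36 of the 48526 genes in that table: 20 genes for cytosolic enzymes and 16 for mitochondrial ones, whose symbols end in 2. All 36 passed the filter on low counts (mean above 20 normalized counts) and were among the 15580 genes tested. RNA had been sequenced from neuro-intermediate lobes (NIL) of the mouse pituitary, in 4 groups of 2 libraries, each library from a pool of 5 lobes of C57B6 mice. The lobes came from males aged 3 months. The WT group carried no transgene. The ACreb3l2 group carried POMC_ACreb3l2, the AXBP1 group carried POMC_AXBP1, and the ACreb3l2/AXBP1 group carried both. Each transgene makes an acidic dominant negative protein that pairs with its target, the transcription factor Creb3l2 or XBP1, and keeps that factor from DNA. The transgenes are driven by the POMC promoter, which is used for expression in POMC cells, and the lobe also holds other cells. A pair of stable lines was selected for each transgene, by a transgene transcript well above that of the endogenous factor, and the data presented come from a single line. The comparisons ask how the synthetase transcripts differ when Creb3l2, XBP1 or both are blocked in melanotropes, the POMC cells of this lobe.

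Aminoacyl tRNA synthetases join each amino acid to its tRNA, the step that gives ribosomes their charged tRNAs. Most amino acids have one nuclear gene for the cytosolic enzyme and another for the mitochondrial enzyme, and the protein synthesis systems of the cytosol and the mitochondrion use separate tRNAs. Several cytosolic synthetases are held together with scaffold proteins in the multisynthetase complex, and many cytosolic synthetase genes are known targets of ATF4, a bZIP factor of the amino acid and stress responses.

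Total counts ran from 28256086 to 37988912 per library. The lobes held melanotrope RNA as labelled: all 7 melanotrope markers were tested, with a summed level of 2211000 to 5518000 normalized counts, mostly Pomc. Markers of pituicytes, endothelium, macrophages, fibroblasts and the anterior lobe were also present, so the libraries are of the whole lobe although the labels name melanotropes. Each transgene carries the coding sequence of its factor from the leucine zipper onward, so transgene reads could be counted at Creb3l2 or Xbp1. The counts do not show this. Creb3l2 stood at 28680 and 28200 normalized counts in WT libraries, 27210 and 26780 in those with ACreb3l2, 18840 and 22830 in those with AXBP1, and 21210 and 14040 in those with both (double transgenic against WT, log2 change -0.69, edgeR adjusted p = 0.0428), so the libraries labelled with ACreb3l2 were not above WT. Xbp1 stood at 11880 and 13440 in WT, 9155 and 9205 with ACreb3l2, 12450 and 13850 with AXBP1, and 17640 and 12850 with both, and was not called against WT (log2 change 0.06 in AXBP1 and 0.27 in ACreb3l2/AXBP1). The gene counts therefore do not check the labels, and each group named below is the libraries labelled so, its transgene unseen in these counts. The transgene transcripts had been measured by RT-qPCR in lobes of the transgenic mice, and those measurements were not analysed here. In pooled whole lobes, fewer cells of a type and less RNA per cell cannot be told apart. Levels below are normalized counts (counts scaled by the TMM library size) within a gene, or FPKM, the deposited value per length, where genes are compared with each other. Called genes are those with an edgeR quasi-likelihood adjusted p under 0.05 over all genes tested. The 3 comparisons with WT share the 2 WT libraries.

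In WT lobes the cytosolic synthetases were the more abundant class per length. Their mean FPKM ran from 20.7 for Farsa, a subunit of the phenylalanine enzyme, to 132 ± 18 (SD, n = 2) for Sars, the serine enzyme, with a median of 39.6. Eprs, whose single polypeptide charges glutamate and proline tRNAs, followed at 111 FPKM. The mitochondrial enzymes ran from 1.17 FPKM for Mars2 to 17.7 FPKM for Iars2, with a median of 8.76, so every cytosolic gene lay above every mitochondrial gene in WT. Together the cytosolic genes held 0.291% and 0.287% of counts in the WT libraries, and the mitochondrial genes held 0.0417% and 0.0374%.

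The median of the cytosolic genes lay below WT in all groups labelled transgenic, and that of the mitochondrial genes lay near WT with TMM scaling. In the order ACreb3l2, AXBP1 and ACreb3l2/AXBP1, the median log2 change of the 20 cytosolic genes was -0.37, -0.32 and -0.51. Without WT replicate 2 it was -0.24, -0.19 and -0.38. Over the 16 mitochondrial genes it was -0.05, -0.07 and 0.02, and over all genes tested 0.01, 0.00 and 0.01. The log2 change was below 0 for 20, 19 and 19 of the 20 cytosolic genes, against 9, 10 and 8 of the 16 mitochondrial genes. The mitochondrial counts turned on the scaling: they were 4, 8 and 3 with library size alone, and 8, 14 and 8 on the log2(FPKM + 0.1) scale. The mitochondrial median moved too, to 0.18 in ACreb3l2/AXBP1 with library size alone and to -0.27 in AXBP1 on that FPKM scale. The medians of all genes there were 0.17 and -0.15. The cytosolic share of counts was 0.221% and 0.191% in the double transgenic libraries, and the mitochondrial share 0.0584% and 0.0614%, or 0.0393% and 0.0394% without Lars2.

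**Figure D1:**
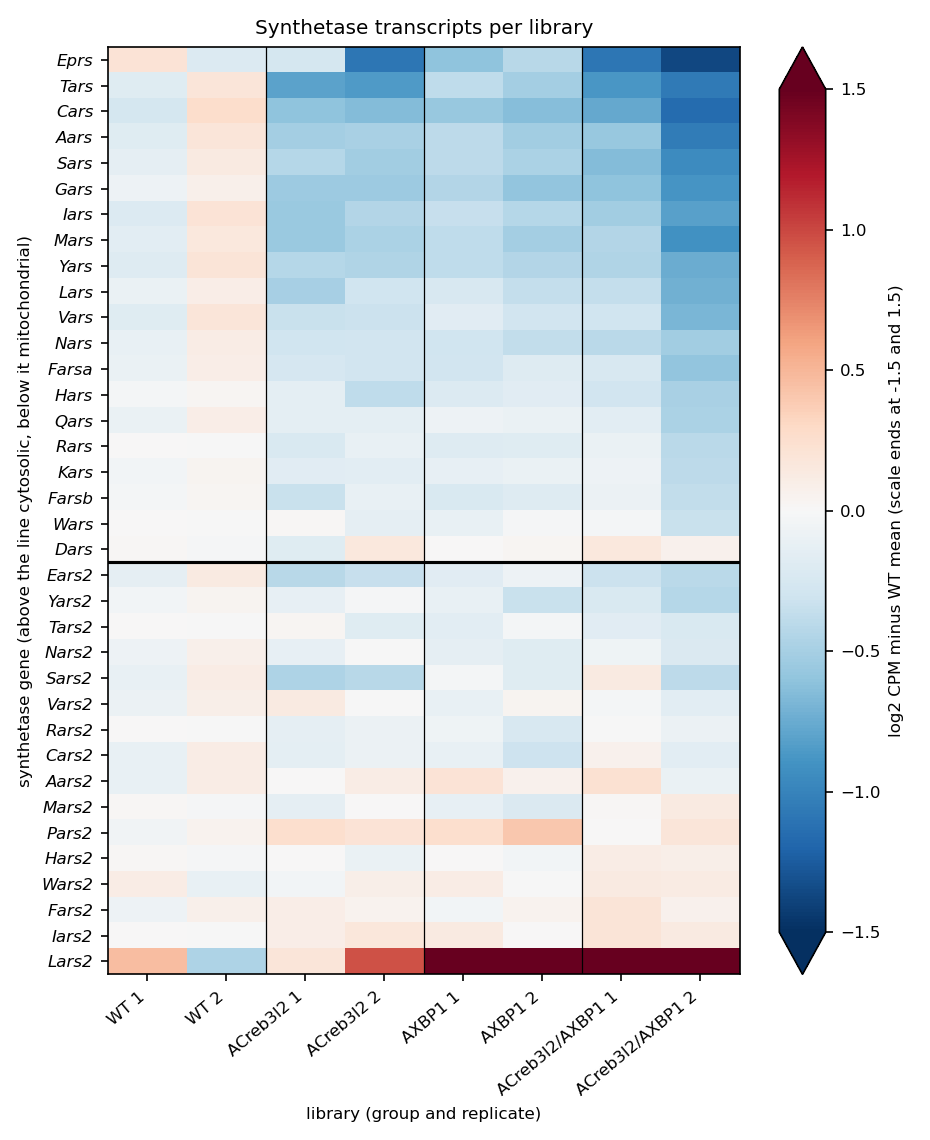
Heat map of log2 CPM minus the WT mean for 36 synthetase genes (rows, ordered within each class by their change in ACreb3l2/AXBP1) in 8 libraries (columns). Most rows above the line, the 20 cytosolic genes, are blue in the 6 transgenic libraries, with Dars as the pale exception at the bottom of the block. Below the line Lars2 is dark red in the AXBP1 and ACreb3l2/AXBP1 libraries, where it runs past the end of the scale at 1.5.

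Most cytosolic genes were separated from WT library by library. In ACreb3l2 both libraries lay below both WT libraries for 18 of 20 cytosolic genes, where 23.2% of all genes tested did so. In AXBP1 this held for 17 of 20 (23.8% of all genes), and in ACreb3l2/AXBP1 for 19 of 20 (28.7% of all genes). The mitochondrial counts were 3, 6 and 4 of 16. Libraries above both WT libraries were seen for 0, 0 and 1 cytosolic genes and for 2, 3 and 5 mitochondrial genes (Mars2 among the last, at 525.1 against 524.5 in the nearest WT library), beside 22.3%, 22.3% and 29.6% of all genes.

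By the test, 12 cytosolic genes fell in ACreb3l2/AXBP1 compared with WT (6.99% of all genes tested were called lower), and 1 mitochondrial gene, Lars2, rose (3.06% were called higher). In ACreb3l2 alone Tars and Gars fell, 2 of 36 (2.5% of all genes were called lower and 0.539% higher). In AXBP1 no gene of the table was called by edgeR (0% in either direction), and 12 of the 36 synthetase genes had an unadjusted p under 0.05, 10 of them lower cytosolic genes. Of all 15580 genes tested, 1554 had such a p, 885 of them lower. DESeq2 called 8, 3 and 15 of the 36 in ACreb3l2, AXBP1 and ACreb3l2/AXBP1, of 755, 79 and 2074 genes called in all. The double transgenic count rested on its libraries. It was lower without WT replicate 2, ACreb3l2/AXBP1 replicate 2 or either AXBP1 library, which lend the fit its estimate of spread. The number of all genes called was lower in these fits too. The median change of the cytosolic genes in ACreb3l2/AXBP1 ran from -0.71 to -0.38 when any single library was left out.

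**Figure D2:**
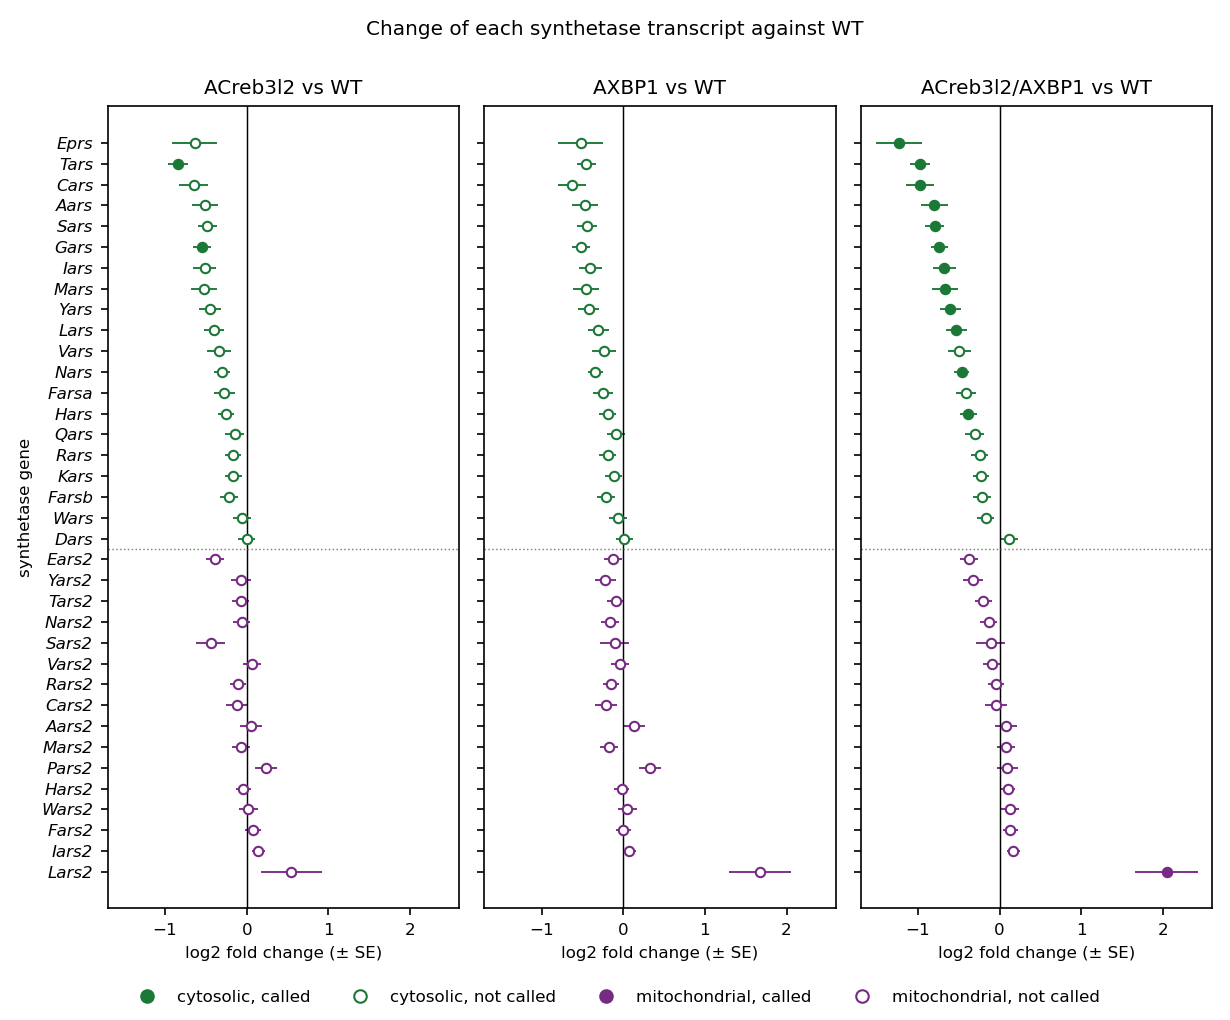
Fitted log2 fold change against WT, with its standard error as bars, for each synthetase gene in the 3 transgenic groups (2 libraries per group). Filled points are called by edgeR, green points are cytosolic and purple points mitochondrial. In ACreb3l2/AXBP1 12 green points are filled, from Hars at -0.38 to Eprs at -1.24, and the filled purple point is Lars2 at 2.04.

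Of the 8 enzymes of the multisynthetase complex, 4 fell in ACreb3l2/AXBP1, namely Eprs, Mars, Iars and Lars. Eprs had the largest fall of all members. Eprs lies on chromosome 1 from 185363044 to 185428360 on the plus strand (GENCODE M21 on GRCm38, as for all gene positions here), with no other annotated gene over it. WT libraries held 23970 and 18110 normalized counts of Eprs, ACreb3l2 libraries 17290 and 9792, AXBP1 libraries 13740 and 15570, and double transgenic libraries 9816 and 8057. All 6 transgenic libraries were below both WT libraries, and the replicates of WT and ACreb3l2 lay far apart. The log2 change of Eprs was -1.24 ± 0.28 (SE) in ACreb3l2/AXBP1, 0.425 times WT (edgeR adjusted p = 0.042). It stood at -0.64 ± 0.28 in ACreb3l2 and -0.52 ± 0.28 in AXBP1, neither called. The call in ACreb3l2/AXBP1 held in 2 of 8 fits with a library omitted and was lost with limma on FPKM (adjusted p = 0.0611 with pseudocount 0.1). In ACreb3l2 the value ran from -1.10, called, without replicate 1 of that group to -0.28 without its replicate 2.

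Mars, the methionine enzyme, which also supplies the initiator tRNA, had 3171 and 3950 normalized counts in WT, 2411 to 2729 over the single transgenic libraries and 2609 and 1879 in ACreb3l2/AXBP1 (log2 change -0.67 ± 0.16, edgeR adjusted p = 0.035). Its gene overlaps Ddit3 on the opposite strand, and how the authors' counting treated strand is not given in the sources used here. Iars, the isoleucine enzyme, had 3145 and 4212 in WT, 2469 to 2864 in the single transgenic libraries and 2535 and 2071 in the double transgenic ones (-0.68 ± 0.14, edgeR adjusted p = 0.0219). Its gene holds snoRNA genes on the same strand. Lars, the leucine enzyme, had 4662 and 5377 against 3893 and 3045, with 3554 to 4231 in the single transgenic libraries (-0.53 ± 0.13, edgeR adjusted p = 0.0313). For each of these genes both double transgenic libraries lay below both WT libraries, and replicate 2 was the lower of the pair. With a library omitted the call held in 6 of 8 fits for Iars and in 4 of 8 for Mars and Lars.

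The other enzymes of the complex moved less. The log2 changes of Qars (glutamine), Rars (arginine) and Kars (lysine) in ACreb3l2/AXBP1 were -0.31, -0.24 and -0.23, and none was called. Dars, the aspartate enzyme, stood at WT level: WT libraries held 3816 and 3706 normalized counts, ACreb3l2 libraries 3309 and 4210, AXBP1 libraries 3761 and 3839, and double transgenic libraries 4212 and 3948. It was the 1 cytosolic gene above both WT libraries in the double transgenic lobes, at a log2 change of 0.12 ± 0.11. The median log2 change was -0.42 over the 8 enzymes of the complex and -0.55 over the 12 outside it.

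Outside the complex, 8 of 12 enzymes fell in ACreb3l2/AXBP1. Tars, the threonine enzyme, on chromosome 15 from 11382301 to 11399665 on the minus strand, was the member with the smallest p in both ACreb3l2 and ACreb3l2/AXBP1. Tars stood at 3783 and 4888 normalized counts in WT libraries, 2468 and 2386 in those with ACreb3l2, 3311 and 3032 in those with AXBP1, and 2342 and 2070 in those with both. The 2 groups with ACreb3l2 did not overlap the other 2. Its log2 change with ACreb3l2 was -0.84 ± 0.12 (edgeR adjusted p = 0.0060), and with both transgenes -0.97 ± 0.12 (edgeR adjusted p = 0.0025). With AXBP1 it was -0.45 ± 0.12 and not called. The call in ACreb3l2/AXBP1 held with any single library left out, and that in ACreb3l2 was lost without ACreb3l2 replicate 2.

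Cars, the cysteine enzyme, had 1711 and 2447 normalized counts in WT and 1199 and 920 in ACreb3l2/AXBP1, a log2 change of -0.97 ± 0.17 (edgeR adjusted p = 0.0139). In ACreb3l2 and AXBP1 it stood at 1299 to 1383, below both WT libraries, with log2 changes of -0.65 and -0.62 that were not called. Aars, the alanine enzyme, on chromosome 8 from 111033144 to 111057664 and overlapped by Exosc6 on the same strand, had 7489 and 9581 in WT, 5905 to 6445 in the single transgenic libraries and 5698 and 4101 in the double transgenic ones (-0.80 ± 0.16, edgeR adjusted p = 0.021). Sars had 8009 and 9657 in WT, 6108 to 6696 in the single transgenic libraries and 5595 and 4579 in ACreb3l2/AXBP1 (-0.80 ± 0.12, edgeR adjusted p = 0.0048). Sars, like Tars and Gars, stayed called in this comparison without any single library. Cars, Aars and Sars each had both double transgenic libraries below every other library.

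The falls of the remaining called genes outside the complex were smaller. Yars, the tyrosine enzyme, had 2812 and 3656 normalized counts in WT and 2345 and 1911 in ACreb3l2/AXBP1 (log2 change -0.60). Nars, for asparagine, had 4470 and 5219 against 3660 and 3352 (-0.47). Hars, for histidine, had 2202 and 2293 against 1843 and 1603 (-0.38), and its call held in 3 of 8 fits with a library omitted. Its gene overlaps Hars2 head to head on the opposite strand, and Hars2 was at 913 and 893 in WT and 978 and 961 in the double transgenic lobes. The genes outside the complex that were not called were Vars (valine, -0.49), Farsa (-0.41), Farsb (-0.22) and Wars (tryptophan, -0.17). Farsa and Farsb encode the 2 subunits of a single enzyme and both had values below WT. With DESeq2 Farsa and Vars were also called, and Farsb was not.

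Gars and Kars supply the glycine and lysine enzymes of both the cytosol and the mitochondrion from 1 gene each. Gars, on chromosome 6 from 55038007 to 55079500, was lower with the cytosolic class. WT libraries held 4810 and 5346 normalized counts of Gars, ACreb3l2 libraries 3467 and 3474, AXBP1 libraries 3727 and 3358, and double transgenic libraries 3349 and 2745. All 6 transgenic libraries lay well below WT, and in ACreb3l2 the replicates nearly coincided. Gars fell with ACreb3l2 (log2 change -0.55 ± 0.11, edgeR adjusted p = 0.0246) and with both transgenes (-0.74 ± 0.11, edgeR adjusted p = 0.0044). With AXBP1 the value was -0.52 ± 0.11 and not called (edgeR adjusted p = 0.39). In ACreb3l2 the Gars call was lost without WT replicate 2 or without either ACreb3l2 library. Kars had 4697 and 4983 in WT, 4308 to 4512 in the single transgenic libraries and 4588 and 3676 in ACreb3l2/AXBP1, a log2 change of -0.23 ± 0.10 that was not called. Leaving both genes out did not change the cytosolic medians to 2 decimals.

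Promoters were examined for 3 short motifs, because the transgenes act on bZIP factors and ATF4 is another. The RefSeq table (GRCm38.p6) gave 250 bases before to 50 after the start for 13 cytosolic and 14 mitochondrial genes. One motif was TGACGT, the core of cAMP response elements. Another was ACGTGG, found in unfolded protein response elements, which can overlap the end of the first. The last was TGATGNAA, a composite site of ATF4 with a C/EBP factor. Each was searched on both strands. TGATGNAA, or its complement TTNCATCA, was found in 5 of 13 cytosolic promoters (Aars, Gars, Iars, Tars and Yars), in 0 of 14 mitochondrial promoters and in 4.5% of all 27025 genes with a promoter in the table. The matches of Iars and Yars lay after the start, beginning at bases 8 and 4. Aars had a match beginning 112 bases before the start and another at base 10 after it. Its window lies inside the M21 gene, which starts at 111033144. TGACGT was found in 1 cytosolic gene (Eprs) and 3 mitochondrial genes (Aars2, Nars2 and Wars2), and in 8.4% of all genes. ACGTGG was found in 2 cytosolic genes (Iars and Tars) and 3 mitochondrial genes (Ears2, Rars2 and Wars2), and in 9.4% of all genes. In ACreb3l2/AXBP1, 12 of all 20 cytosolic genes and 6.99% of all genes tested were called lower. All 5 cytosolic genes with TGATGNAA were among them, and so were Eprs, Mars and Sars of the 8 without it. The called genes Lars, Cars, Hars and Nars had no promoter to examine. The motifs were chosen with earlier results known, so this split is only a description.

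Stretches before the start that hold a match are shown for the called genes Tars, Gars and Eprs, 5′ to 3′ on the strand of the gene, with the matches in capitals. The Tars stretch is chr15:11399666-11399818, minus strand, with TTNCATCA beginning 15 bases before the RefSeq start.
Tars: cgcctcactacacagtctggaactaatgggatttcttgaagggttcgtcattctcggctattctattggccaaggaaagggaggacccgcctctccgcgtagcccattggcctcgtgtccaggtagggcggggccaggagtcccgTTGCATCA
The Gars stretch is chr6:55037841-55038000, plus strand, with the match beginning 30 bases before the start.
Gars: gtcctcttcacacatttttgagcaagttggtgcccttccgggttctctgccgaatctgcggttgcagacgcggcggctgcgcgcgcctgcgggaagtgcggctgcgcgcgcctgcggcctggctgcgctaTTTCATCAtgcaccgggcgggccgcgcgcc
The Eprs stretch is chr1:185362884-185363043, plus strand, with TGACGT beginning 9 bases before the start and its complement ACGTCA 159 bases before it.
Eprs: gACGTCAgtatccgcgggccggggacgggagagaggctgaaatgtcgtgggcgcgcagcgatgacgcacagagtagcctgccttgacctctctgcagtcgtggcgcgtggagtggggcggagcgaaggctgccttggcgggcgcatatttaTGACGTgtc
A match describes letters in the window and is not evidence of binding.

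Lars2 apart, no mitochondrial gene was called in any comparison. In ACreb3l2/AXBP1 the other 15 genes had log2 changes from -0.37 to 0.16, with a median of -0.04. The lowest was Ears2, the mitochondrial glutamate enzyme, with 861 and 1033 normalized counts in WT libraries, 708 and 743 in those with ACreb3l2, 839 and 891 in those with AXBP1, and 752 and 712 in those with both. Its log2 change of -0.37 ± 0.11 missed the threshold (edgeR adjusted p = 0.0594). Yars2, at -0.33 ± 0.13, followed. The highest were Iars2 (0.16), Fars2 (0.13) and Wars2 (0.12). In ACreb3l2 the lowest was Sars2, at -0.44 ± 0.18 (edgeR adjusted p = 0.25). Pars2, the proline enzyme and partner of the proline activity of Eprs, had 256 and 276 in WT and 267 to 352 in the transgenic groups.

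By amino acid, the cytosolic gene had a lower log2 change than its mitochondrial partner in all 16 pairs, in each of the 3 comparisons with WT. The median difference of the log2 changes within a pair was -0.39, -0.31 and -0.72 for ACreb3l2, AXBP1 and ACreb3l2/AXBP1. In ACreb3l2/AXBP1 the smallest differences were those of arginine (-0.20) and tyrosine (-0.28). The largest was that of leucine (-2.58), which Lars2 sets, followed by proline (-1.33) and cysteine (-0.93). These are descriptions across genes. Eprs stands in both the glutamate and the proline pair, Farsa alone stands for the phenylalanine enzyme, and the pairs share their libraries. With Farsb in place of Farsa the cytosolic log2 change was also the lower one in each comparison.

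**Figure D3:**
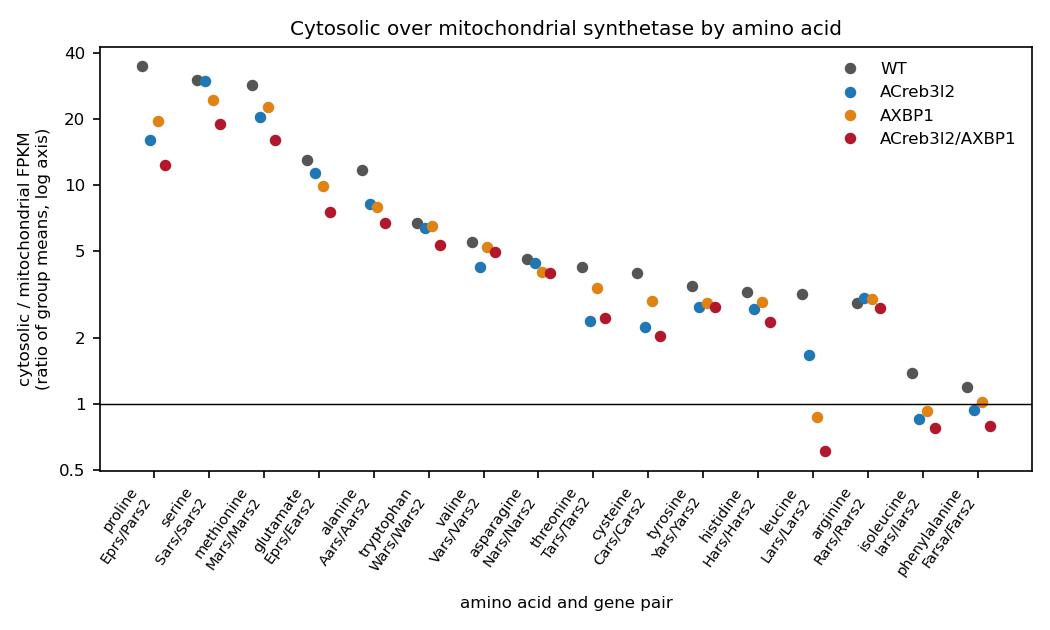
Ratio of the group mean FPKM of the cytosolic gene to that of its mitochondrial partner (log axis) for 16 pairs, ordered by their WT ratio, with 1 point per group. The WT ratio lies above 1 in every pair, from 1.19 for phenylalanine (Farsa, with Farsb left out) to 34.8 for proline, and the ACreb3l2/AXBP1 point lies below the WT point in every pair.

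On the deposited scale the ratio of mean FPKM was below its WT value in all 16 pairs in ACreb3l2/AXBP1, and in every pair but arginine in ACreb3l2 and AXBP1. In WT the cytosolic gene was above its partner in all 16 pairs, with a median ratio of 4.40. The median ratio was 3.64, 3.69 and 3.37 in the 3 transgenic groups, in the same order, and the cytosolic gene was the higher one in 14, 14 and 13 pairs. In ACreb3l2/AXBP1 the ratio was below 1 for phenylalanine (0.798), isoleucine (0.781) and leucine (0.610). For proline it went from 34.8 in WT to 12.3. For arginine it was 2.90 in WT and 2.75 with both transgenes, and slightly above WT with either alone (3.04 with ACreb3l2). The phenylalanine values rest on the choice of subunit: Farsb lay above Fars2 in every group, at 39.5 against 17.3 FPKM in WT, 34.8 against 18.7 with ACreb3l2, 29.8 against 15.3 with AXBP1 and 33.1 against 19.1 with both, so with Farsb this pair would not be among the exceptions.

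Lars2, the mitochondrial leucine enzyme, on chromosome 9 from 123366927 to 123462666 on the plus strand, was the only member that rose. WT libraries held 1990 and 1050 normalized counts of Lars2, ACreb3l2 libraries 1639 and 2813, AXBP1 libraries 5233 and 4478, and double transgenic libraries 6038 and 6516. The 4 libraries with AXBP1 lay above the 4 without it, and the WT and ACreb3l2 libraries overlapped. The log2 change was 2.04 ± 0.38 in ACreb3l2/AXBP1, 4.12 times WT (edgeR adjusted p = 0.0338), and 1.67 ± 0.38 in AXBP1 (edgeR adjusted p = 0.47). DESeq2 called both. The edgeR call in ACreb3l2/AXBP1 was lost on leaving out 5 of the 8 libraries, one at a time, and the log2 change ran from 1.65 to 2.58. In FPKM, Lars2 went from 10.2 ± 4.8 (SD, n = 2) in WT to 27.1 ± 0.18 in AXBP1 and 36.6 ± 4.4 in ACreb3l2/AXBP1, where it was the highest mitochondrial gene.

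Of 5 loci listed here as ribosomal RNA-like, 4 were tested and 2 were also called higher in ACreb3l2/AXBP1. Gm42418, a chromosome 17 locus known to collect ribosomal RNA reads, stood at 24150 and 25690 normalized counts in WT libraries, 23680 and 33650 in those with ACreb3l2, 61460 and 53110 in those with AXBP1, and 76190 and 106500 in those with both. It rose in ACreb3l2/AXBP1 (log2 change 1.87, edgeR adjusted p = 0.0023), and so did Gm24187 (3.18, edgeR adjusted p = 0.0153). Gm15564, on chromosome 16, stood at 385 and 144 in WT libraries, 296 and 519 with ACreb3l2, 1070 and 971 with AXBP1 and 1085 and 692 with both, and was not called. Gm26917, which lies beside Gm42418, had a log2 change of -0.86 and was not called. No annotated M21 gene overlaps Lars2. AY036118 had 0 counts in every library and was not tested, although the deposited FPKM lists it at 245 and 0.000108 in WT, 52.3 and 540 with ACreb3l2, 1150 and 299 with AXBP1, and 1102 and 240 with both. The part of ribosomal RNA reads in the Lars2 value was not tested.

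**Figure D4:**
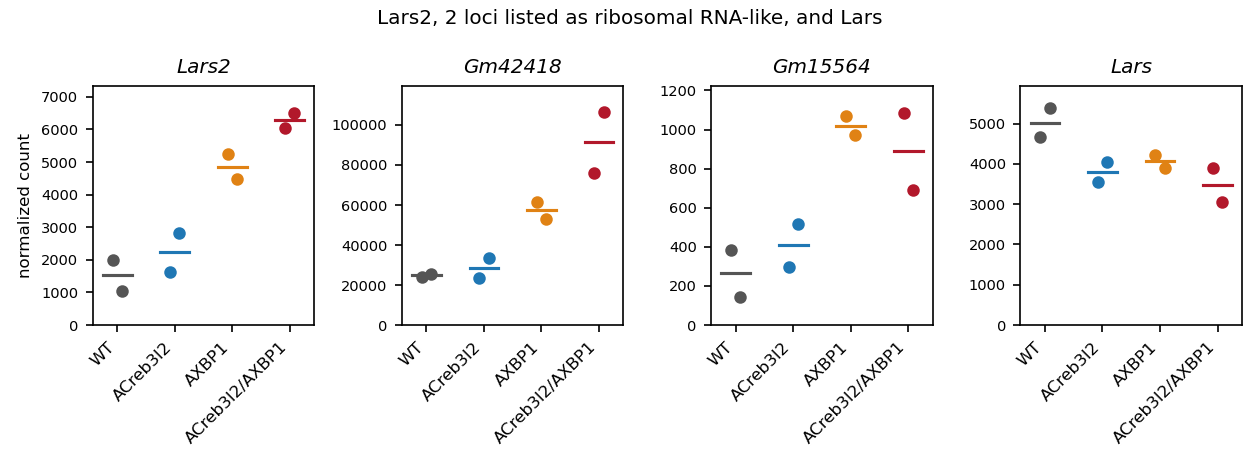
Normalized counts of Lars2, of the loci Gm42418 and Gm15564, and of Lars in each library (points, 2 per group), with the group mean as a bar and axes that start at 0. Lars2 and both loci are higher in the AXBP1 and ACreb3l2/AXBP1 groups than in WT, whereas Lars is lower in all transgenic groups.

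Between the transgenic groups no synthetase gene was called. In ACreb3l2 compared with AXBP1, 0.68% of all genes were called lower and 0.0385% higher. The members with an unadjusted p under 0.05 were Lars2 (-1.13 ± 0.37), Tars (-0.39 ± 0.12) and Ears2 (-0.26 ± 0.11), all lower in ACreb3l2. These are 3 of 36, where 1478 of all 15580 genes had such a p, so their number is near the background. In ACreb3l2/AXBP1 compared with ACreb3l2 no gene was called in either direction (0%). The members with an unadjusted p under 0.05 were Lars2 (2.83 times ACreb3l2) and Sars (log2 change -0.31), 2 of 36 beside 1112 of all 15580 genes. In ACreb3l2/AXBP1 compared with AXBP1, 0.616% of genes were called lower and 0.00642% higher, and 4 members passed an unadjusted p of 0.05: Eprs (-0.71), Tars (-0.52), Sars (-0.36) and Mars2 (0.25). Their share was that of the background, since 1736 of all 15580 genes passed it too. DESeq2 called Tars in that comparison and no member in the other two. The cytosolic medians in these comparisons were -0.04, -0.15 and -0.22. The first was 0.16 on the log2(FPKM + 0.1) scale, where the median of all genes was 0.18. The others were -0.32 and -0.38 without ACreb3l2/AXBP1 replicate 1, and -0.01 and -0.07 without its replicate 2.

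The interaction, which sets the double transgenic log2 change against the added single transgenic ones, was called for no gene by edgeR (0% of genes) and for 4 genes by DESeq2, none of them a member. Its median was 0.15 over the cytosolic genes and 0.06 over the mitochondrial genes. An unadjusted edgeR p under 0.05 was seen for 1 of 36 members, Pars2, beside 386 of all 15580 genes. The cytosolic value was -0.02 without ACreb3l2/AXBP1 replicate 1, 0.27 without its replicate 2 and 0.04 without WT replicate 2. For Gars it was 0.33 ± 0.15, for Tars 0.31 ± 0.17 and for Eprs -0.08 ± 0.39. At these standard errors a departure from additive change was not detectable for any member by the adjusted p.

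Across the 8 libraries the cytosolic genes moved together. The median Pearson correlation of log2 levels was 0.88 over 190 cytosolic pairs, 0.09 over 120 mitochondrial pairs and 0.23 between the classes. These are descriptions over 8 libraries in 4 groups, which share depth and group differences. Aars (0.96) and Mars (0.95) had the highest median correlation with the other cytosolic genes. Dars, at -0.25, was the only cytosolic gene with a negative one. Of the mitochondrial genes, Ears2 (0.80), Yars2 (0.77) and Nars2 (0.75) were the most like the cytosolic genes, and Lars2 (-0.71) and Iars2 (-0.63) the least. The cytosolic median per library, relative to the WT mean, was -0.10 and 0.10 for WT, -0.34 and -0.35 for ACreb3l2, -0.30 and -0.36 for AXBP1, and -0.38 and -0.70 for ACreb3l2/AXBP1. The first double transgenic library was thus close to the single transgenic ones, and the second was the lowest of all.

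Among the genes that work beside the synthetases, Aimp2 and Prorsd1 were called against WT. Of all genes tested, 2.5% were called lower in ACreb3l2 and 6.99% in ACreb3l2/AXBP1. Of the 3 scaffolds of the complex, Aimp2 fell in ACreb3l2/AXBP1, from 690 and 713 to 524 and 462 normalized counts (log2 change -0.51, edgeR adjusted p = 0.019), while Eef1e1 (-0.32) and Aimp1 (-0.10) were not called. Of the 4 genes for the mitochondrial amidotransferase and formyltransferase none was called in a comparison with WT. Of 5 genes for tRNA editing and peptidyl-tRNA release 1 was called, Prorsd1. Prorsd1 stood at 1127 and 1030 normalized counts in WT libraries, 463 and 576 in those with ACreb3l2, 839 and 961 in those with AXBP1, and 548 and 599 in those with both. It fell in both groups with ACreb3l2 (log2 change -1.06 and -0.91, edgeR adjusted p = 0.0025 and 0.0035).

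A list of 18 genes of ATF4 and the amino acid response also had log2 changes below 0 in each comparison with WT. In ACreb3l2, 11 of 18 fell, with a median log2 change of -0.79, beside 2.5% of all genes called lower. In AXBP1 none was called, 14 had an unadjusted p under 0.05, and all 18 had a log2 change below 0 (median -0.62), beside 1554 of all 15580 genes at such a p. In ACreb3l2/AXBP1, 14 fell (median -0.93), beside 6.99% of all genes called lower. Atf4 itself stood at 7729 and 8435 normalized counts in WT libraries, 4434 and 4079 in those with ACreb3l2, 4675 and 4605 in those with AXBP1, and 3466 and 2820 in those with both. Atf4 fell by 0.92 with ACreb3l2 (edgeR adjusted p = 0.0021) and had a log2 change of -1.36 with both transgenes (edgeR adjusted p = 0.00036). In these groups the log2 changes were -1.62 and -2.22 for Trib3, a pseudokinase induced by ATF4, and -0.82 and -1.14 for Asns, which makes asparagine, all called.

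Of the 7 melanotrope markers, Tbx19 (log2 change -0.88) and Scg2 (-0.57) fell in ACreb3l2/AXBP1, and Pomc (-0.84) was not called. The 7 log2 changes there ran from -0.94 to -0.08. Pax7 overlapped WT, with 11440 and 13640 normalized counts in WT and 13620 and 10190 with both transgenes. Drd2 also overlapped it, at 8153 and 11140 against 9187 and 7733. The median of the 7 markers per library, relative to the WT mean, was -0.13 and 0.13 for WT, -0.18 and -0.22 for ACreb3l2, -0.41 and -0.18 for AXBP1, and -0.42 and -1.04 for ACreb3l2/AXBP1. The library with the lowest melanotrope median was the one with the lowest cytosolic synthetase median. All 5 pituicyte and astroglia markers had log2 changes above 0 in ACreb3l2 (median 0.48, 3 at an unadjusted p under 0.05, none called) and in ACreb3l2/AXBP1 (median 0.45), where Aqp4 rose (0.51). In AXBP1, where no gene of the table was called, their median was 0.18. All 5 endothelial (median 0.42) and all 5 fibroblast and pericyte markers (median 0.39) had log2 changes above 0 there. Single libraries could still overlap WT, as for Pecam1, with 874 and 671 normalized counts in WT and 1192 and 864 with AXBP1. The summed pituicyte and astroglia level was 12550 and 10220 for WT, 14910 and 12170 with ACreb3l2 and 12540 and 14750 with both transgenes. The 5 endothelial markers summed to 3976 and 4904 in WT and to 5594 and 6588 in ACreb3l2/AXBP1, and none was called. None of the macrophage, fibroblast or anterior lobe markers (5 each) was called in this comparison, and the anterior lobe sum was 147900 and 226300 in WT against 75710 and 76870 with AXBP1 and 201100 and 98100 with both transgenes. The part of the cell make-up of the lobes in the synthetase values was not tested.

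**Figure D5:**
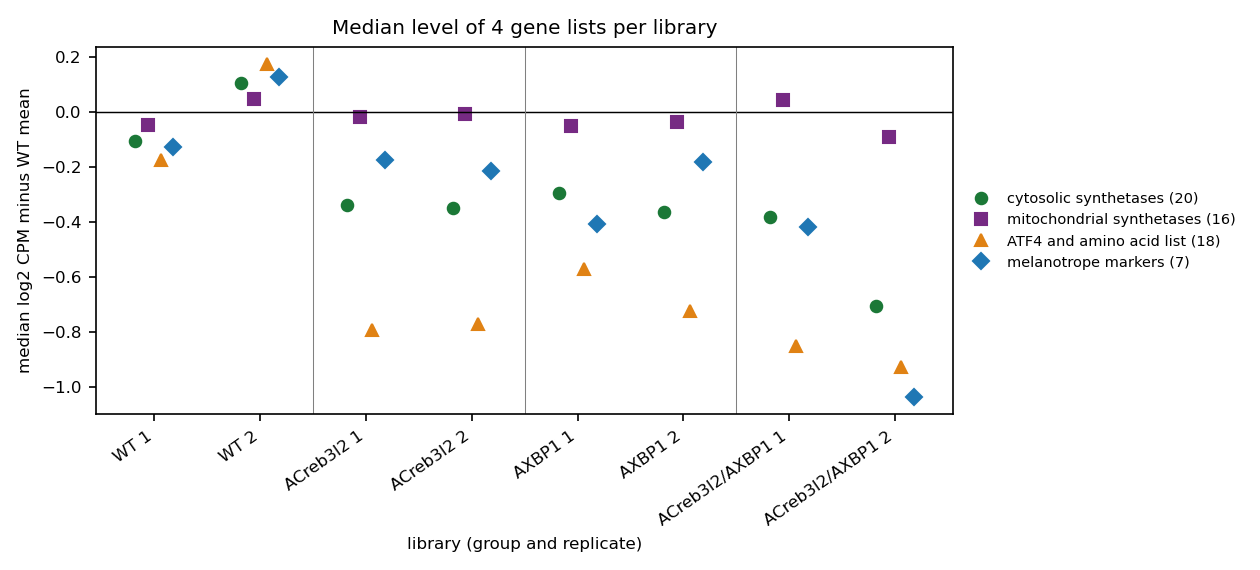
Median log2 CPM minus the WT mean, per library, over the cytosolic synthetases, the mitochondrial synthetases, the ATF4 and amino acid list and the melanotrope markers (number of genes in brackets). The cytosolic median lies between -0.70 and -0.30 in all 6 transgenic libraries, the mitochondrial median between -0.09 and 0.04, and the ATF4 list below both.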

How the data were processed

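RNA-seq of 8 pooled NIL samples was used. The authors deposited raw read counts per Ensembl gene, made per the study's methods with Trimmomatic, Tophat on mm10 and HTSeq-count, and FPKM per gene locus (fragments scaled by gene length and library size), with the loci of a gene summed here. The submitters' processing notes name HTSeq and DESeq and the build GRCm38. The labels state ribosomal depletion and the methods text a stranded mRNA kit. The annotation release and the strand setting of the counting are not given in the sources used here. Replicates share only a group label, so p-values measure the spread between pools.

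Counts were fitted in edgeR 4.0.16 (R 4.3.3) with TMM, a robust quasi-likelihood test, 1 mean per group over all 8 libraries and Benjamini-Hochberg adjustment over 15580 genes with a mean above 20 normalized counts. The common coefficient of biological variation was 0.107. Replicate libraries were distinct (chi-squared per degree of freedom 10.7 to 48.5). Alternatives were DESeq2 1.42.0, limma 3.58.1 on log2(FPKM + 0.1) and log2(FPKM + 1), other scalings and filters, a replicate block, and leaving out each library. Limma fold changes are on the log2(FPKM + pseudocount) scale. The test was checked on simulated data. Members called in any comparison, those among the 5 largest changes against WT, and Gars, Kars, Farsa, Farsb, Hars and Hars2 are named with values, and further members were named after their values were seen. Members, lists and motifs were chosen with earlier results of these data known. Positions are from GENCODE M21 (GRCm38) and promoters from RefSeq. Some items are not reported here.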

Additional observations from a re-analysis of the deposited data

Results flagged for a closer look

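Mars2, the mitochondrial methionine enzyme, had normalized counts below both WT libraries in both AXBP1 libraries (log2 change -0.17) and above both in both ACreb3l2/AXBP1 libraries (log2 change 0.08), which set it apart. Mars2 stood at 524.5 and 512.6 normalized counts in WT libraries, 476.4 and 444.5 in those with AXBP1 and 525.1 and 570.8 in those with both transgenes, so the first double transgenic library is a near tie with WT. In FPKM that library (1.109) lay below both WT libraries (1.202 and 1.141). Neither change was called, nor was the direct difference between both groups (log2 difference 0.25 ± 0.11, edgeR adjusted p = 0.43).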

How the results depend on the processing

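The number of members called depended on the test and filter. In ACreb3l2 compared with WT it was 2, and 8 with DESeq2, 12 in edgeR without the filter on low counts, 1 with limma on log2(FPKM + 0.1) or log2(FPKM + 1) and 0 with limma and no filter. In AXBP1 compared with WT it was 0, and 3 with DESeq2 and 11 without the count filter. In ACreb3l2/AXBP1 compared with WT it was 13, and 0 with unfiltered limma. Without the count filter it was 2 for ACreb3l2 against AXBP1, 2 for ACreb3l2/AXBP1 against ACreb3l2 and 5 for ACreb3l2/AXBP1 against AXBP1, where DESeq2 gave 1 and edgeR 0. Of all genes, the unfiltered fit called 730, 513 and 755 in these 3 comparisons, against 112, 0 and 97 with the filter. The unfiltered edgeR fit called 1455, 628 and 3209 genes in the 3 comparisons with WT, against 473, 0 and 1566, and unfiltered limma 139, 79 and 198. The cause of these differences was not tested. The number of all genes called also moved with the library left out. In ACreb3l2 and ACreb3l2/AXBP1 against WT it was highest where most members were called and lowest where fewest were. Leaving out single libraries gave 0 to 8 members in ACreb3l2, 3 to 16 in ACreb3l2/AXBP1 and 0 to 1 in ACreb3l2/AXBP1 against AXBP1.

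Scaling by library size alone moved the median of all genes to 0.17 in ACreb3l2/AXBP1. The mitochondrial medians were then 0.023, -0.0048 and 0.18 in ACreb3l2, AXBP1 and ACreb3l2/AXBP1, and the cytosolic median in the last -0.35, which is 0.52 below that of all genes as in the TMM fit. On the FPKM scale the median of all genes in AXBP1 was -0.15 with pseudocount 0.1 and -0.11 with 1. The cytosolic medians there were -0.48 and -0.47, the mitochondrial ones -0.27 and -0.20, and the mitochondrial median in ACreb3l2 was 0.013 and 0.011, and with pseudocount 0.1 these medians did not change when the FPKM filter was dropped. Without Lars2 the mitochondrial median in ACreb3l2/AXBP1 was -0.042. Leaving out single libraries moved it between -0.092 and 0.034, and the cytosolic median between -0.71 and -0.38. Of 1632 values of named members under alternatives, 1285 kept their call or, uncalled, lay within 1 SE, 227 uncalled values moved further, 64 lost a call, 56 gained one, and none of the called values reversed.

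Replicate numbers did not pair the libraries: deviations of same-numbered libraries correlated at -0.18 to 0.09. With the replicate block, 9 members were called in ACreb3l2/AXBP1 (Lars2, Mars, Lars and Hars lost), 2 in ACreb3l2 and 0 in AXBP1. Of all genes, the block fit called 1113, 321 and 3 in the same order, against 1566, 473 and 0 without the block. With the numbers of the double transgenic libraries crossed in the block, an alternative chosen after seeing the data, 14 were called, 11 of them shared with the fit without a block (Eprs and Lars2 lost, Ears2, Farsa and Vars gained).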
